A study of Mus musculus with 8 samples.

Results

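The genes of 8 transcription factors and chromatin factors that are characteristic of the primed epiblast, Otx2, Pou3f1, Sox4, Zic2, Sall2, Utf1, Tcf15 and Foxa2, were examined for c-Jun binding in mouse epiblast stem cells. A c-Jun peak was counted for a gene when its centre lay in the gene body or within 100 kb of one of the gene's transcription start sites (TSSs) in mm10. By this rule 17 of 16166 peaks of the wild type line (EpiSC) and 7 of 6032 peaks of the Klf4-transgenic line (kEpiSC) lay near the 8 genes, 24 of 22198 peaks in all. Binding was measured by ChIP-seq, with 2 c-Jun ChIP libraries and 2 input libraries for each line. The labels give the strain of the wild type ChIP samples as CBA/CaJ X C57BL/6J and state none for the other libraries. The methods of the study give another cross for its EpiSCs, with males of the Oct4-GFP reporter strain. kEpiSCs are 1 EpiSC line that bears Klf4 driven by the CAG promoter and the Oct4-GFP reporter. By that cross the wild type line can carry the reporter too. Both lines are primed cells grown with Activin A and bFGF. The antibody field of the labels and the methods of the study name c-Jun, whereas the protocol text in the labels names H3K27ac. One peak list was deposited per line, which is taken to combine the replicates but is named only in the description of the first one, so the spread between replicates is unknown here. Intervals reflect the error of counting and nothing else. The identity of the cells could not be checked against marker expression, since expression was not analysed here.

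c-Jun is a subunit of the transcription factor AP-1, which binds the sequence TGAGTCA, read TGACTCA on the other strand, as a dimer with Fos, ATF or other Jun proteins. Primed epiblast stem cells represent the epiblast after implantation, which has left the naive state of embryonic stem cells and can be directed into the germ layers. Otx2 and Pou3f1 (Oct6) are homeodomain factors that appear as naive cells become primed, Zic2 and Sall2 are zinc finger proteins, Sox4 is an HMG box factor, Tcf15 is a basic helix-loop-helix factor linked to priming for differentiation, Utf1 is a chromatin-bound factor of pluripotent cells, and Foxa2 is a forkhead factor of the endoderm and node.

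The DNA segments of 5 peaks carry the main observations and are given here from the mm10 reference (GRCm38.p6, RefSeq), plus strand, 5′ to 3′. The first is the strongest peak near Pou3f1, which lacked an exact AP-1 site and has its closest match, with 1 mismatch, in capitals. The capitals in the others mark each exact TGACTCA or TGAGTCA. The segments of Pou3f1, Sox4 and Tcf15 reach 50 bp to each side of the summit of the EpiSC peak with the highest fold near the gene. The segments of Utf1 and Foxa2 are whole EpiSC peaks and were chosen after their values were seen, the first because it was in both lists with 2 sites and the second because it held 6.
Pou3f1 (chr4:124584317-124584417): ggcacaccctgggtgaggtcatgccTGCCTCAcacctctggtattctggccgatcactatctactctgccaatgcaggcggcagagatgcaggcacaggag
Sox4 (chr13:28931879-28931979): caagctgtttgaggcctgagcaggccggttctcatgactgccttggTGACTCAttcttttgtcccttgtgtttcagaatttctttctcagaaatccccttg
Utf1 (chr7:139971542-139971689): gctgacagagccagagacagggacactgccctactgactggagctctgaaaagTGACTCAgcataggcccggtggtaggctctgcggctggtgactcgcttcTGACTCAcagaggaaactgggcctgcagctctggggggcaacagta
Tcf15 (chr2:152105407-152105507): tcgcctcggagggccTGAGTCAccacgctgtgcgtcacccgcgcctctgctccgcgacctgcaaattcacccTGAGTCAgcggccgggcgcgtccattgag
Foxa2, outside the 100 kb limit (chr2:147744053-147744286): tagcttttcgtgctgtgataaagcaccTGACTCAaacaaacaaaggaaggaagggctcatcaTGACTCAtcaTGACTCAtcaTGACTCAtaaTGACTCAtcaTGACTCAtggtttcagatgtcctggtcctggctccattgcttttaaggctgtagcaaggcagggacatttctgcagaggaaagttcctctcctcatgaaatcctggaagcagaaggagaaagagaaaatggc

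In EpiSCs 5 of the 8 genes had a peak, namely Utf1 with 6, Pou3f1 with 5, Tcf15 with 3, Sox4 with 2 and Sall2 with 1. This is 62.5% of the genes (exact 95% binomial interval 24.5 to 91.5%), beside 66.6% of the 21000 protein-coding genes counted by the same rule. In kEpiSCs 3 of the 8 had a peak, Utf1 with 3, Pou3f1 with 2 and Tcf15 with 2, which is 37.5% (8.52 to 75.5%) beside 42.9% of all protein-coding genes. The 8 genes therefore had peaks at close to the share of any protein-coding gene in both lines. No peak was listed for Otx2, Zic2 or Foxa2 in either line, and Sox4 and Sall2 had peaks in EpiSCs alone. The kEpiSC list is smaller, and a protein-coding gene had a median of 1 peak in EpiSCs and 0 in kEpiSCs. No gene among the 8 had a peak at its own promoter, defined as 1000 bp upstream to 100 bp downstream of a TSS. The share of all protein-coding genes with a peak at their own promoter was not counted. Whether this sets the 8 genes apart is therefore not known.

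**Figure D1:**
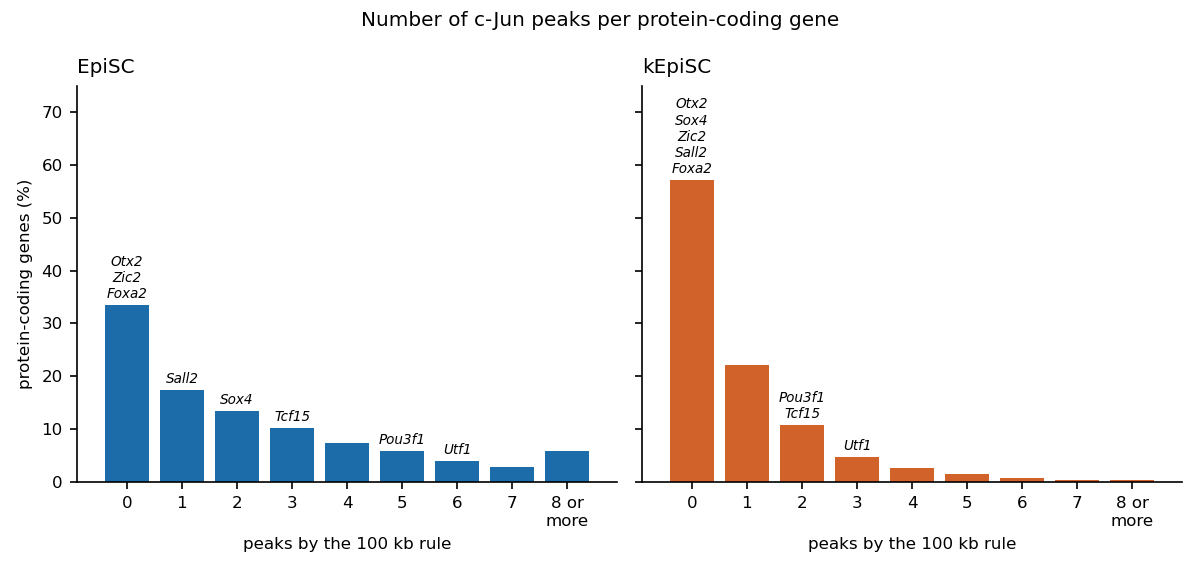
The x axis is the number of c-Jun peaks of a protein-coding gene by the 100 kb rule and the y axis the share of the 21000 protein-coding genes in percent, with EpiSC on the left and kEpiSC on the right. The names stand above the bar of their number of peaks, and Utf1 is farthest to the right in both lines, with 6 and 3 peaks.

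The number of peaks at Utf1 and Pou3f1 was in the upper part of the distribution over genes. As many or more peaks were counted at 12.5% of the protein-coding genes for Utf1 in EpiSCs and at 18.3% for Pou3f1, and the shares in kEpiSCs were 10.2% and 20.9%. For Tcf15 they were 35.8% and 20.9%, and for Sox4 and Sall2 in EpiSCs they were 49.2% and 66.6%. Most of these windows are shared with other genes. The window of Utf1 holds the TSSs of 5 other protein-coding genes, that of Sall2 8, that of Pou3f1 4 and that of Tcf15 3, whereas those of Otx2, Sox4 and Foxa2 hold none. The gene itself had the nearest protein-coding TSS for 8 of the 17 EpiSC peaks (47.1%, 23.0 to 72.2%) and for 3 of the 7 kEpiSC peaks (42.9%, 9.9 to 81.6%). The same shares over all protein-coding genes were not counted, so whether these are unusual is not known. Proximity does not make a gene a target of the bound factor.

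**Figure D2:**
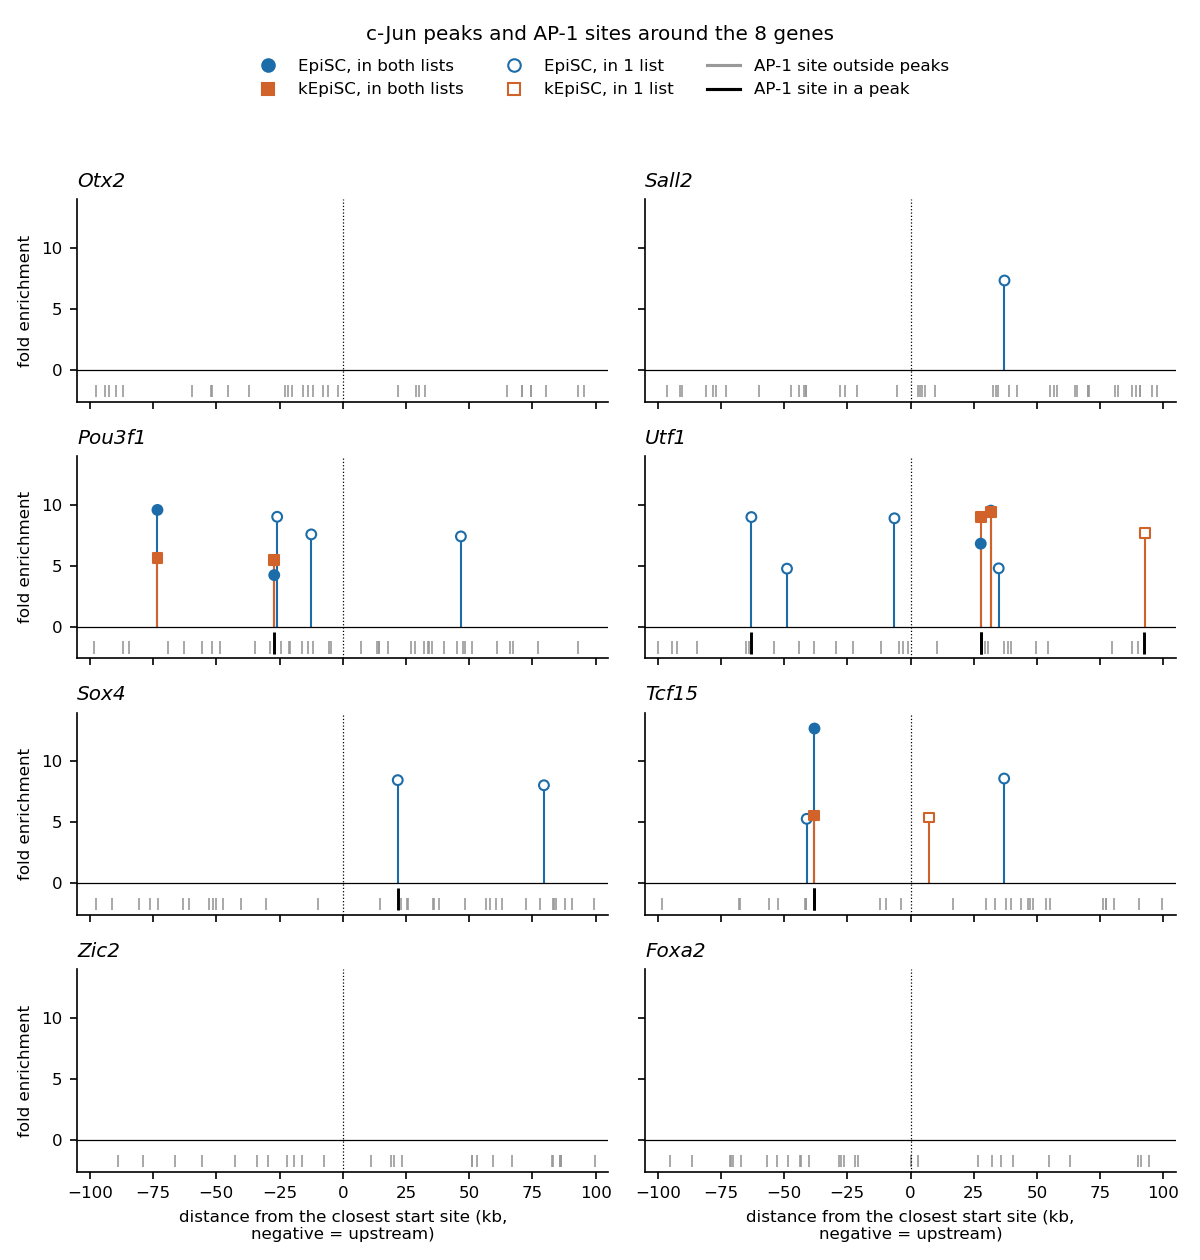
Each panel is 1 gene, with the distance of a peak from the closest TSS of the gene in kb on the x axis (upstream is negative) and the fold enrichment of the peak on the y axis, circles for EpiSC and squares for kEpiSC, filled where the peak overlaps one of the other line. Ticks under each panel mark AP-1 sites, tall and black where they lie in a peak, and the panels of Otx2, Zic2 and Foxa2 hold ticks but no peak.

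The strength of a peak is given as the deposited fold enrichment at its summit, which is the number of ChIP reads plus 1 over the local background plus 1. The number of reads and the background behind it were solved from the fold and the deposited p-value. In kEpiSCs a ChIP read counted as 0.775 in the fold, and the kEpiSC background is on that scale, while read numbers are whole reads. Read numbers, backgrounds and folds of the lines are therefore given side by side and were not tested against each other. The 17 EpiSC peaks had a median fold of 8.05 (range 4.23 to 12.7) beside 6.16 for the whole list. Of the 17, 13 were above the list's median (76.5%, 50.1 to 93.2%). The median number of reads of the 17 was 13, beside 10 for the list. The 7 kEpiSC peaks had a median fold of 5.62 (range 5.40 to 9.41) beside 7.23 for the list. Of the 7, 3 were above the list's median. The median number of reads of the 7 was 18, beside 14, and their median background was 0.952, beside 0.476. The peaks near the 8 genes thus stood above the middle of the EpiSC list and, with more reads over a higher background, below the middle of the kEpiSC list by fold.

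**Figure D3:**
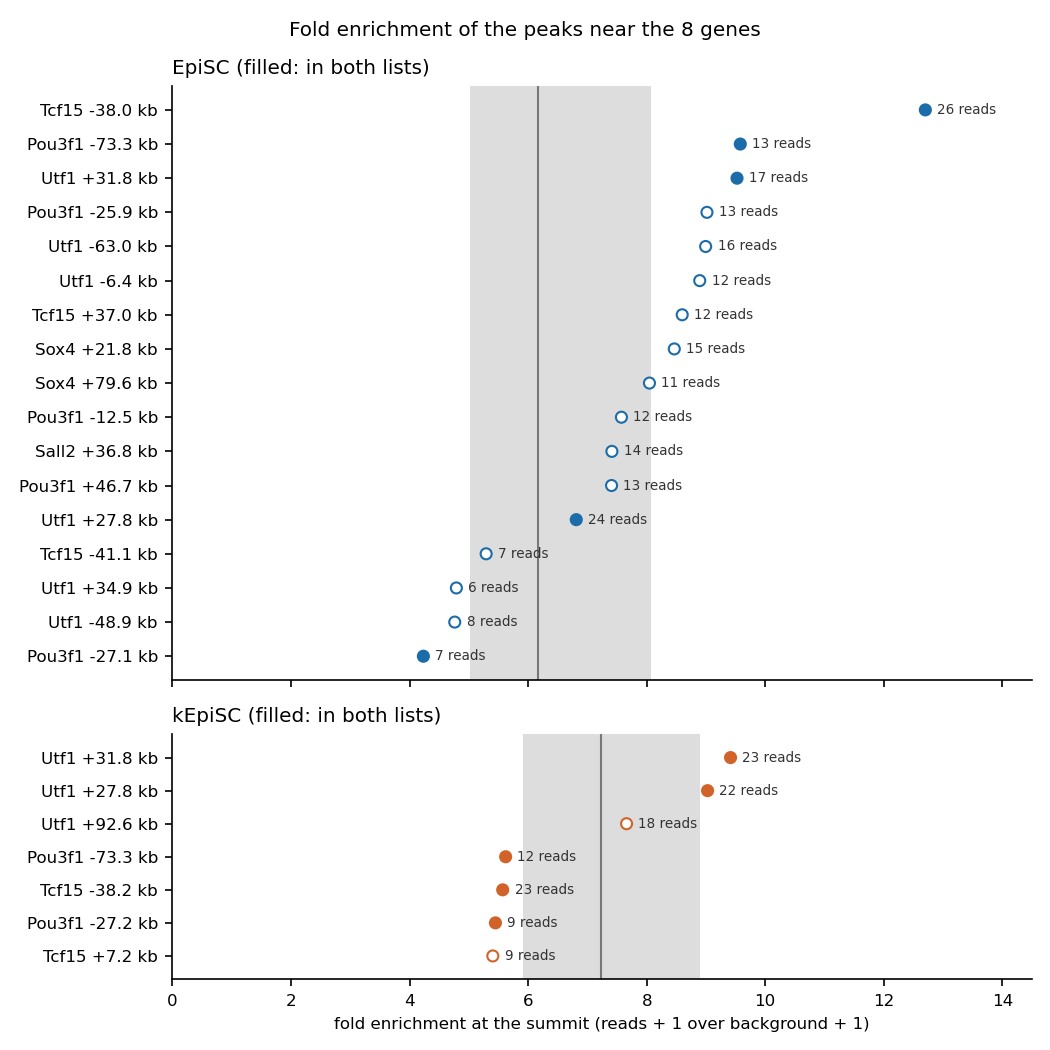
The x axis is the fold enrichment at the summit and each row is 1 peak, named by its gene and its distance from the gene's closest TSS, with EpiSC above and kEpiSC below. Filled points overlap a peak of the other line, the number beside a point is its reads, the grey band spans the quartiles of the whole list and the grey line is its median, and 13 of 17 EpiSC and 3 of 7 kEpiSC points lie to the right of that line.

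Pou3f1, a POU factor of the primed epiblast and later of myelinating glia, had 5 EpiSC peaks, and 4 of them lay upstream in intron 1 of the long noncoding RNA gene Gm2164. The strongest, whose centre is printed above, was at chr4:124584253-124584451, 73.3 kb upstream of the TSS, with a fold of 9.58 from 13 reads, and 13.0% of EpiSC peaks were higher. The peak at chr4:124631629-124631774, 25.9 kb upstream, had a fold of 9.02 from 13 reads. The one at chr4:124645101-124645280 was closest to the TSS, 12.5 kb upstream, with a fold of 7.57 from 12 reads. These 3 peaks had like read numbers, and the fourth upstream peak, the 27.1 kb one, had 7 reads. On the other side, 46.7 kb downstream of the TSS, chr4:124704313-124704447 lay in intron 1 of Fhl3, a LIM domain protein gene, with a fold of 7.41.

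In kEpiSCs Pou3f1 had peaks at 2 of these upstream positions. The peak at chr4:124584274-124584392 overlapped the strongest EpiSC peak, with a fold of 5.62 from 12 reads, and 77.4% of the kEpiSC list was higher. The peak at chr4:124630283-124630524, 27.2 kb upstream, had a fold of 5.45 from 9 reads and overlapped an EpiSC peak with a fold of 4.23 from 7 reads. The region they share begins at its TGAGTCA, which starts at 124630402, the first base of the EpiSC peak. No other peak near Pou3f1 held an exact AP-1 site.

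Utf1 had 6 EpiSC and 3 kEpiSC peaks, and those in both lists had a neighbouring gene, Spef1l, as the nearest protein-coding TSS. The peak at chr7:139975515-139975723, 31.8 kb downstream of the Utf1 TSS in intron 5 of Spef1l, had a fold of 9.52 from 17 reads in EpiSCs and overlapped a kEpiSC peak with a fold of 9.41 from 23 reads. It had no exact AP-1 site. The peak at chr7:139971542-139971689, 27.8 kb downstream between genes, had a fold of 6.81 from 24 reads in EpiSCs and a fold of 9.03 from 22 reads in kEpiSCs. Its background was 2.67 in EpiSCs and 0.999 in kEpiSCs, the latter on the scale where a read counts as 0.775. This region holds a pair of TGACTCA sites that start 49 bp apart, as the segment above shows.

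Other Utf1 peaks were in 1 list each. In EpiSCs, chr7:139880729-139881053, 63.0 kb upstream and nearest to Kndc1, had a fold of 8.99 from 16 reads and 1 TGACTCA. The peak at chr7:139937408-139937549, in intron 29 of Kndc1, was 6.4 kb upstream of Utf1, with a fold of 8.89 from 12 reads. It was the closest peak to the TSS of any of the 8 genes in EpiSCs. The remaining EpiSC peaks were weaker, with folds of 4.76 in the untranslated exon 1 of Kndc1 and of 4.79 at the Spef1l promoter, 35 bp from its TSS. The third kEpiSC peak, chr7:140036337-140036593, lay 92.6 kb from Utf1 at the promoters of Tubgcp2, a gene of the gamma-tubulin complex, and Zfp511, with a fold of 7.66 from 18 reads and 74 bp from the Zfp511 TSS.

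Tcf15 had the strongest peak of the whole set, but at the promoter of another gene. The peak at chr2:152105352-152105845 was 38.0 kb upstream of Tcf15 and 75 bp from the TSS of Srxn1, which encodes sulfiredoxin, the enzyme that reduces overoxidised peroxiredoxins. It had a fold of 12.7 from 26 reads in EpiSCs, and 4.73% of the list was higher. The overlapping kEpiSC peak, chr2:152105363-152105490, had a fold of 5.57 from 23 reads. Its background was 2.379, on the scale where a read counts as 0.775, and that of the EpiSC peak was 1.126. The pair of TGAGTCA sites in the printed segment lies on both sides of the EpiSC summit. Both are outside the central 200 bp of the EpiSC peak, which is 494 bp wide, and inside the central 200 bp of the kEpiSC peak.

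The remaining peaks counted for Tcf15 were in 1 list each. In EpiSCs chr2:152180561-152180707, between genes and 37.0 kb downstream, had a fold of 8.60 from 12 reads, and chr2:152102381-152102669, 41.1 kb upstream and nearest to Srxn1, a fold of 5.29 from 7 reads. In kEpiSCs chr2:152150727-152150845 lay 7.2 kb downstream of the TSS with a fold of 5.40 from 9 reads. None of these held an exact AP-1 site, and with 1 list per line a peak in 1 list alone is not shown to differ between the lines.

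Sox4 and Sall2 had peaks in EpiSCs alone. At Sox4, whose window holds no TSS of another protein-coding gene, chr13:28931863-28932029 lay between genes 21.8 kb downstream of the TSS, with a fold of 8.47 from 15 reads. The summit lies within its TGACTCA, printed above, 1 bp from the middle base of the site. A further peak at chr13:28874067-28874190 lay 79.6 kb downstream in intron 2 of the noncoding gene 2610307P16Rik, with a fold of 8.05 from 11 reads and no AP-1 site. The nearest kEpiSC peak to the Sox4 TSS was 995.5 kb away. The peak counted for Sall2, chr14:52279459-52279646, lay 36.8 kb from its TSS and 158 bp from that of Rab2b, a small GTPase gene, and overlapped an untranslated exon of Tox4 on the other strand. It had a fold of 7.41 from 14 reads, and the nearest kEpiSC peak to Sall2 was 296.3 kb away.

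Otx2, Zic2 and Foxa2 had no peak by the rule, and their closest peaks lay beyond 100 kb. The peak closest to Otx2 in EpiSCs, chr14:48804218-48804381, was 136.7 kb upstream, with Otx2 as its nearest protein-coding gene, a fold of 11.6 from 21 reads and 1 AP-1 site. In kEpiSCs the closest was 1241 kb away. For Zic2 the closest EpiSC peak was 137.8 kb upstream with a fold of 5.29, nearest to its neighbour Zic5, and the closest kEpiSC peak was 198.0 kb upstream with a fold of 8.06. The 100 kb limit therefore lay between peaks 79.6 and 133.3 kb from a TSS in EpiSCs, at Sox4 and Utf1, and between 92.6 and 169.3 kb in kEpiSCs, at Utf1 and Tcf15.

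The closest peak to Foxa2 was 301.3 kb downstream of its TSS in both lines, between genes, with Foxa2 as the nearest protein-coding gene. In EpiSCs it had a fold of 18.5 from 34 reads, and 0.668% of the list was higher. In kEpiSCs the peak at chr2:147744047-147744210 had a fold of 22.5 from 40 reads and ranked 7 of 6032. The segment printed above shows 6 TGACTCA sites, 5 of them in a run at even spacing. As many AP-1 sites in the central 200 bp were found in 3 peaks of the EpiSC list and 3 of the kEpiSC list, this one included. It is described for its position outside the limit and enters no count of the 8 genes.

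Of the 17 EpiSC peaks near the 8 genes, 5 overlapped a kEpiSC peak by at least 1 bp (29.4%, 10.3 to 56.0%), beside 28.3% of all EpiSC peaks. Of the 7 kEpiSC peaks, 5 overlapped an EpiSC peak (71.4%, 29.0 to 96.3%), beside 75.8% of all kEpiSC peaks. Both shares were close to those of the whole lists. The shared EpiSC peaks had a median fold of 9.52 and the others 7.81, and the whole EpiSC list had 8.21 and 5.82. In kEpiSCs the order was the other way near the 8 genes, with 5.62 for the 5 shared peaks and 6.53 for the other 2, while the whole list had 7.57 and 6.15. Over all EpiSC peaks 57.6% of the peaks at or above the upper quartile of fold and 12.7% of those at or below the lower quartile overlapped a kEpiSC peak.

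An exact TGACTCA or TGAGTCA was sought, on either strand, within the central 200 bp of every peak. It was present in 3 of the 17 EpiSC peaks, 2 near Utf1 and 1 near Sox4 (17.6%, 3.8 to 43.4%), beside 45.9% of all EpiSC peaks and 4.02% of windows of the same length 2000 bp to each side of them. In kEpiSCs it was present in 3 of 7, one each near Pou3f1, Utf1 and Tcf15 (42.9%, 9.9 to 81.6%), beside 58.5% of all kEpiSC peaks and 4.09% of the flanking windows. The EpiSC share lay below that of the list, which is outside its interval, while the kEpiSC interval spans the share of its list. Over the whole peak the EpiSC count was 5 of 17 (29.4%, 10.3 to 56.0%) beside 51.0% of all, an interval that spans the list's share, since the sites at the Srxn1 promoter and upstream of Pou3f1 are then included. The interval for the 200 bp around the summit spans the list's share too, with 4 of 17 (23.5%, 6.81 to 49.9%) beside 49.2%. TGACGTCA, the related site of Jun dimers with ATF and CREB proteins, was in none of the 17 or 7 peaks, which allows shares of up to 19.5% and 41.0%, beside 2.13% and 2.4% of the lists. A match is a stretch of letters and is not by itself a bound site.

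**Figure D4:**
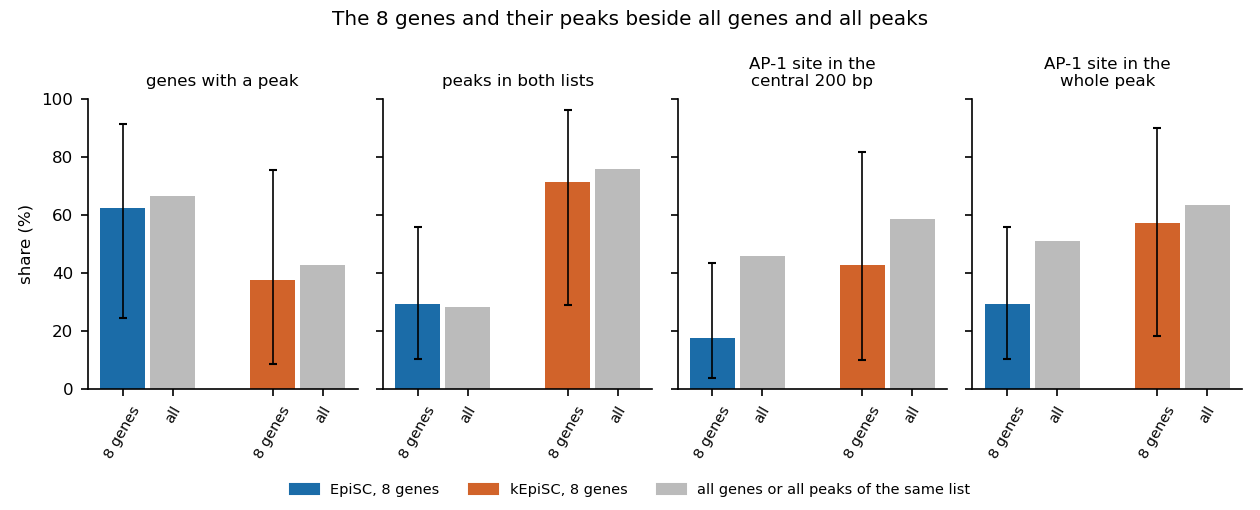
The bars show shares in percent for the 8 genes or the peaks near them (coloured) and for all protein-coding genes or all peaks of the same list (grey), with exact 95% binomial intervals for the coloured bars. The panels are the genes with a peak, the peaks in both lists, and an AP-1 site in the central 200 bp and in the whole peak, and of these pairs only the EpiSC share with a site in the central 200 bp has an interval that leaves out its grey bar.

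The windows of the 8 genes were also searched for AP-1 sites, in and outside peaks. They held 27 to 43 sites each, with a median of 31, beside a median of 35 over all protein-coding genes (quartiles 30 and 41). Of the 267 sites, 7 lay in an EpiSC peak (2.62%, 1.06 to 5.33%), beside 3.69% of the sites in the windows of all protein-coding genes and 2.48% of the 419224 sites on chromosomes 1 to 19 and X. In kEpiSCs 6 lay in a peak (2.25%, 0.829 to 4.83%), beside 1.78% and 1.21%. Each of these shares lies within the interval of the 267 sites. The windows of Otx2, Zic2 and Foxa2 held 31, 27 and 28 sites, with none in a peak. The site nearest to a TSS was 311 bp away at Foxa2, 969 bp upstream at Utf1 and 1982 bp upstream at Otx2, and for none of the 8 genes was the nearest site in a peak.

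Other genes were counted by the same rule for comparison. Over all protein-coding genes 66.6% had a peak in EpiSCs and 42.9% in kEpiSCs. Of 14 close relatives of the 8 genes (genes of the same families, with none for Utf1 or Tcf15), 6 had a peak in EpiSCs and 2 in kEpiSCs. Among them in EpiSCs were Sox12 with a highest fold of 25.5 (at Defb20), Sox11 with 9.58 and Sall1 with 6.84. Of 25 other genes of the primed epiblast, 20 and 11 had one, with the highest EpiSC folds near Krt18 (23.8), Foxd3 (17.1), Lin28a (14.4, at Hmgn2) and Tdgf1 (13.8, at Lrrc2). Of 13 naive transcription factors 10 and 9 had one, with the highest EpiSC folds near Tfap2c (21.7, at Fam209), Klf5 (16.0), Klf4 (11.9) and Nanog (10.6, at Foxj2). All 8 transcription and chromatin factors used in both states had one in EpiSCs and 7 in kEpiSCs. Their highest EpiSC folds were near Zfp143 (25.3, at Ipo7), Sox2 (19.2), Zfp281 (17.8) and Sall4 (11.1). The highest EpiSC fold near the 8 primed factors was 12.7, and their median fold was the highest of the 5 lists in EpiSCs, 8.05 beside 6.07 to 6.49, and the lowest in kEpiSCs, 5.62 beside 6.23 to 8.03. Their share of peaks with a central AP-1 site was the lowest of the 5 in EpiSCs, 17.6% beside 31.0 to 57.1%, but not in kEpiSCs, where it was 42.9% beside 36.7% for the factors of both states. These lists are small and were chosen with results known, and the differences between them were not tested.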

How the data were processed

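The authors aligned reads with Bowtie2 (mm10), discarded those that did not map uniquely and used MACS2 with its defaults. bcl2fastq, SAMtools and bedtools are named too in the submitters' processing notes, with versions not given in the sources used here. The deposited list of each line gives for each peak a score derived from the q-value, its fold over the local background, the −log10 of the p-value and of the q-value, and the summit position. Fold and p-value were solved together for whole reads at the summit, within 0.01 in −log10 p for 100% of EpiSC and 99.6% of kEpiSC peaks, with a minimum of 5 and 7 reads. These minima hold for called peaks and do not give the sequencing depth, and reads per library were not analysed here.

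Curated RefSeq transcripts of GRCm38.p6 gave the TSSs, gene bodies and places, with all 8 genes matched, and the sequences came from that genome. Shares have exact Clopper-Pearson 95% intervals and no test was run, since each line has 1 list. The members and gene lists were chosen with earlier results of these data known. Named are the 8 genes, the protein-coding genes with the TSS nearest to their peaks, up to 4 peaks per gene and line by fold, the closest peaks beyond the limit, and up to 4 genes of each other list by fold, of which 1 is not reported here. Tox4 and the Foxa2 and Utf1 segments were chosen after their values were seen. Segments over annotated exons are not printed. The alternatives were the distance, summit positions, the nearest TSS, the higher-scoring peaks, the overlap, the motif window and GENCODE M21 transcripts. Calculations were tested on simulated data. Python 3.11.15, numpy 2.4.6, pandas 2.3.3, scipy 1.17.1, pysam 0.24.0 and matplotlib 3.10.9 were used.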

Additional observations from a re-analysis of the deposited data

How the results depend on the processing

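The counts moved by more than 1.5 times mainly with the distance from a TSS. Within 10 kb, 1 gene had 1 peak in EpiSCs (Utf1) and 1 gene had 1 peak in kEpiSCs (Tcf15). Within 200 kb there were 32 EpiSC and 11 kEpiSC peaks, by the wider window itself. With each peak given only to the gene with the nearest protein-coding TSS, 8 EpiSC and 3 kEpiSC peaks were counted. With only the peaks at or above the list's median −log10 q, 3 kEpiSC peaks were left, at 1 gene, Utf1. GENCODE M21 transcripts, an alternative added after the data were seen, gave the counts of RefSeq. For these settings the counts over all protein-coding genes were not made. Whether the values set the 8 genes apart is therefore not known. The other shares and median folds stayed within their intervals, but some moved by over 1.5 times. The intervals of the median folds, from the ranks of the folds, were 6.81 to 8.99 in EpiSCs and 5.4 to 9.41 in kEpiSCs. In the higher-scoring peaks the kEpiSC median fold was 9.03, from the 3 peaks left. The 7.23 of the whole list is without that selection, so the values are not compared. Of the higher-scoring EpiSC peaks 15.4% were shared. When an overlap had to cover at least 0.5 of both peaks, 17.6% of the EpiSC and 42.9% of the kEpiSC peaks were shared. The shares of all peaks under these stricter settings are not given here. Whether the lower values are particular to the 8 genes is therefore not known. The intervals of the shares are wide, the kEpiSC shares rest on 7 peaks, and a region with few reads can be missed in either list. The EpiSC share with an AP-1 site was 23.5% (6.81 to 49.9%) in the 200 bp around the summit, where 49.2% of the list had one, and 29.4% (10.3 to 56.0%) over the whole peak, where 51.0% had one. Both intervals span the list's share, although the share of the 17 peaks was the lower in each of the 3 windows. Only in the central window, with 17.6% beside 45.9%, did the interval leave the list's share out. No replicate could be left out. No paired analysis was possible because the deposited peaks carry no values per replicate.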
